A study of Rattus norvegicus with 48 samples.

Results

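RNA of 8 skeletal muscle genes was abundant in every rat posterior eye library and moved as 1 block from animal to animal. For the actin gene Acta1 the highest library had 5.29 times the lowest. Lists of slow fibre and developmental muscle genes followed the 8 less closely, and no muscle gene was called for ovariectomy or age. The 8 come from 10 skeletal muscle genes chosen by symbol, namely Acta1, Ckm, Tnnt3, Tnnc2, Mylpf, Atp2a1, Myh13, Des, Tnni2 and Ryr1. Of these, 8 were among the 32883 genes of the deposited tables and are described here, and Atp2a1 and Myh13 were not analysed here. The choice used symbols and no measured value, and it was made with earlier results of these data known.

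RNA was sequenced from the retina and from the posterior eye, the tissue behind and around the retina, of 24 female Long-Evans rats, giving 48 libraries. Age and surgery were crossed: young rats were 3 to 4 months old and middle-aged rats, called aged here, 9 to 10 months old. In each age, 6 rats had their ovaries removed (ovariectomy, OVX) and 6 had sham surgery, an operation that leaves the ovaries in place. The groups were young sham (animals 1 to 6), young OVX (animals 7 to 12), aged sham (animals 13 to 18) and aged OVX (animals 19 to 24), and the same animal number in both tissues marks the same rat. Animal numbers followed the groups, so any effect of handling order and the group cannot be told apart. The design asks how loss of the ovaries changes expression in each tissue and whether age alters it.

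Skeletal muscle contracts when thick filaments of myosin pull on thin filaments of actin, and troponin on the thin filament lets this happen only in the presence of calcium. Calcium leaves the sarcoplasmic reticulum through the ryanodine receptor and is pumped back afterwards, and creatine kinase keeps the energy supply of the fibre level. The extraocular muscles that turn the eye attach to the sclera, hold mostly fast fibres with some slow ones, and are known for keeping developmental and specialised myosins that limb muscle loses in the adult.

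The promoters of 4 genes that differed in how they were detected in the retina are shown first: Acta1, found at a low level in every retina, Ckm, Tnni2, at or near 0 in most retinas, and Ryr1, present in every retina. They are the 250 bases before the transcription start in RefSeq's table for the rat assembly GRCr8, written 5′ to 3′ on the gene's strand. Capitals mark the E-box letters CANNTG, the TATA letters TATAAA and the CArG box, searched on both strands, and no match overlapped another.
Acta1 (chr19:68784195-68784444, minus strand): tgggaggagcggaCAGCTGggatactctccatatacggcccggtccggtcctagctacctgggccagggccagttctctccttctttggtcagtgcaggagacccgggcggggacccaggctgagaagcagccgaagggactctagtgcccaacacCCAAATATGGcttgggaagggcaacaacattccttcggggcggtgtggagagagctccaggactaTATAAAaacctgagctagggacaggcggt
Ckm (chr1:88189211-88189460, plus strand): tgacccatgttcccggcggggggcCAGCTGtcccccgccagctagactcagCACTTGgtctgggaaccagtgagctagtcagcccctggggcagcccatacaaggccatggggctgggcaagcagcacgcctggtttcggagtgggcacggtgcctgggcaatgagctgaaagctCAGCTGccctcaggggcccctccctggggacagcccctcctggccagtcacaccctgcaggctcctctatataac
Tnni2 (chr1:207024240-207024489, plus strand): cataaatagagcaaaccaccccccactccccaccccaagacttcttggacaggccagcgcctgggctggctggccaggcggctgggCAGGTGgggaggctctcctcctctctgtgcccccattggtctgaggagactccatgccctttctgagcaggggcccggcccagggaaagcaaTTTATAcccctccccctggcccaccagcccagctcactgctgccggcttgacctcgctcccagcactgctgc
Ryr1 (chr1:93551306-93551555, minus strand): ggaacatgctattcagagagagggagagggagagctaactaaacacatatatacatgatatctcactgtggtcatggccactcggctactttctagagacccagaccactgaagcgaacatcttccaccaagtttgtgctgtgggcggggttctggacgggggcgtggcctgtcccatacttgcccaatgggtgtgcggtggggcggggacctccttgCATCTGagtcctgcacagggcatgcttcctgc

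A RefSeq promoter was matched for 9 of the 10 genes, Mylpf under its RefSeq symbol Myl11, and Tnnt3 had no entry. All 9 held at least 1 CANNTG, the letters that myogenic factors and many other proteins bind, as did 65.5% of 33469 promoter windows of 250 bases. TATAAA stood in 2 of the 9, Acta1 and Tnni2, and in 12.9% of all windows. A CArG box, the letters bound by serum response factor, stood in Acta1 alone of the 9 and in 1.5% of all windows, and the MEF2 motif stood in none of the 9 and in 2.96% of all windows. These matches describe letters in a window and nothing about binding.

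Posterior eye libraries held between 11470945 and 22971367 counts and retina libraries between 12916146 and 30737547. Levels are in CPM, each library's counts over its total after TMM scaling, on the usual scale of edgeR, and they are not scaled to transcript length, so no level is compared between genes. Variation between libraries beyond counting error was larger in the posterior eye (a coefficient of 33.4%) than in the retina (12.0%). The posterior eye libraries held mixed tissue: the summed level of 7 rod genes ran from 62.8 to 30238 CPM, and that of 7 pigment epithelium genes from 1409 to 6569 CPM. The labels name no muscle, the 8 genes are made in skeletal muscle of any kind, and Myh13, the myosin best known from extraocular muscle, was not analysed here, so extraocular and other skeletal muscle cannot be told apart by the 8 genes alone. Among the retina libraries, those of young sham animal 2 and young OVX animal 8 stood apart in muscle genes, so retina results that rest on them are given with and without them.

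Together the 8 genes took 0.638% to 2.7% of all counts in the posterior eye libraries. Acta1, the skeletal alpha-actin of the thin filament, ranged over the young sham animals from 4231 to 7072 CPM with a median of 5442. In young OVX animals it ranged from 2484 to 7832 CPM with a median of 5129, in aged sham animals from 1543 to 8164 CPM with a median of 6039, and in aged OVX animals from 2940 to 7342 CPM with a median of 6159. The 4 groups overlapped, with a highest library at 1.67 times the lowest in young sham and at 5.29 times in aged sham animals, and the lowest library of each group was animal 2, 10, 13 or 19. The mean level of Acta1 was 5458 ± 1065 CPM in young sham, 5328 ± 1985 in young OVX, 5315 ± 2439 in aged sham and 5681 ± 1586 in aged OVX animals (SD, n = 6 each).

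Tnni2 encodes the fast troponin I, the subunit that holds contraction back when calcium is low. Its level was 2084 to 3634 CPM with a median of 2477 in young sham, 1239 to 3638 with a median of 2524 in young OVX, 934.4 to 4007 with a median of 3089 in aged sham and 1587 to 3586 with a median of 2808 in aged OVX animals. Tnnt3, the fast troponin T that anchors the complex to tropomyosin, ran from 788.0 to 3308 CPM over all 24 libraries with a median of 2484. Tnnc2, the fast calcium-binding troponin C, ran from 834.6 to 3115 CPM with a median of 2232. All 3 troponin subunits were lowest in aged sham animal 13.

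Mylpf, the fast regulatory light chain of myosin, ran from 770.7 to 3190 CPM over the 24 libraries with a median of 2201. Ckm, the creatine kinase of muscle, ran from 765.5 to 4174 CPM with a median of 2932. Des, the intermediate filament that links the Z-discs of neighbouring myofibrils and is also made in smooth and heart muscle, ran from 341.8 to 1516 CPM with a median of 1031. For these genes too the lowest library was aged sham animal 13.

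Ryr1, the calcium release channel of the sarcoplasmic reticulum, was 178.8 to 337.0 CPM with a median of 189.0 in young sham and 116.6 to 330.1 with a median of 246.3 in young OVX animals. It was 73.0 to 331.2 CPM with a median of 260.9 in aged sham and 153.7 to 291.5 with a median of 247.0 in aged OVX animals. Its lowest value again came from animal 13, and the groups overlapped. In bulk tissue, fewer muscle cells and less muscle RNA per cell cannot be told apart.

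**Figure D1:**
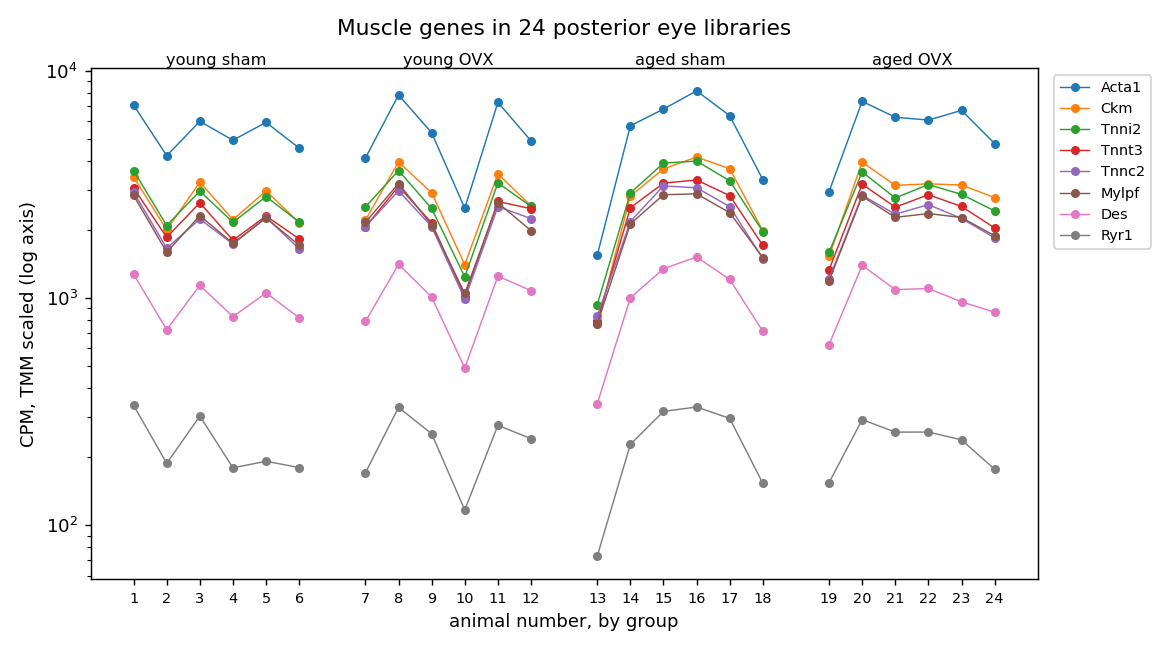
Level of 8 skeletal muscle genes in each posterior eye library, as CPM on a log axis, by animal and group, with 1 point per library and lines joining the libraries of a group only to make each gene traceable. All 8 genes dip together in animals 10, 13 and 19, and the 4 groups overlap, with the widest range in the aged sham group, which holds animal 13.

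The library of each group lowest in muscle RNA, animal 2, 10, 13 or 19, was also the lowest of its group in the summed levels of 8 smooth muscle genes and of 8 lens genes. The smooth muscle list holds Des, itself 1 of the 8 skeletal muscle genes, and the lens list holds Cryab, a small heat shock protein that skeletal muscle also makes. Without Des, the remaining 7 smooth muscle genes were lowest of the group only in animal 19, at 466.4 CPM where the others of its group had 659.4 to 929.6. They summed to 665.9 CPM in animal 2, 529.1 in animal 10 and 600.7 in animal 13, each within the range of its group. Without Cryab, the 7 lens genes were lowest of the group in animals 2, 10 and 19, at 108.4, 50.7 and 59.1 CPM, and animal 13, at 66.5 CPM, lay within the range of its group, 35.8 to 391.7 CPM. In rod and pigment epithelium genes these libraries were not alike. The summed rod genes were highest of all libraries in animal 10, at 30238 CPM, and highest of the aged OVX group in animal 19, at 17741 CPM, but lowest of the young sham group in animal 2, at 631.9 CPM. The summed pigment epithelium genes were highest of all libraries in animal 13, at 6569 CPM. The part of these tissues in the level of the muscle genes was not tested.

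Acta1 was also set against single genes of neighbouring tissue over the 24 libraries, with p-values adjusted over the 7 relations computed. Myh11, the myosin of smooth muscle, had a Pearson r of 0.31 (permutation p = 0.137, adjusted p = 0.319) and a Spearman rho of 0.35 (permutation p = 0.0955, adjusted p = 0.223). Without animals 10 and 13, the 2 libraries farthest from the median of Acta1, r was 0.26, and within the groups of 6 it was -0.65 in young sham, 0.72 in young OVX, 0.49 in aged sham and 0.70 in aged OVX animals. For the fat hormone Adipoq, the meibomian gland gene Awat2 and the collagen gene Col1a1, r lay between -0.08 and 0.10, with adjusted permutation p of 0.867. None of these relations passed the test.

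The 8 genes kept nearly fixed proportions while their amount changed. Over the 24 posterior eye libraries the 28 pairs of the 8 genes had Spearman rho from 0.92 to 0.99 with a median of 0.96, a description of points that share a library and its depth. Their SD in log2 level had a median of 0.52 over libraries. Once the mean log2 level of the others of the 8 genes in the same library was subtracted, the SD was 0.07 for Tnni2, the lowest, and 0.14 for Ryr1, the highest. Each gene was left out of the mean it was set against.

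Outside the 8, 16393 other genes were tested, and those with a provisional symbol, starting LOC, RGD or AABR, were left out of the ranking. Of the first 10 ranked genes, 9 were listed muscle genes. The 10 with the highest rho to the mean level of the 8 were Eno3, Pygm and Rpl3l (each 0.99), Myoz1, Tmod4, Sgca, Tmem38a, Ldb3, Mybpc2 and Adssl1 (lowest 0.98, a value Macrod1 shared). Eno3 and Pygm encode the muscle forms of enolase and glycogen phosphorylase, Rpl3l is a ribosomal protein of striated muscle, and Myoz1 and Ldb3 sit at the Z-disc. Tmod4 and Mybpc2 belong to the fast sarcomere, Sgca to the dystrophin complex, and Tmem38a to the sarcoplasmic reticulum. In all, 83 of the 16393 genes (0.506%), provisional symbols included, reached a rho of 0.95.

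Other muscle genes were grouped in 10 lists with 109 genes in the tables, and their spread around the 8 genes differed by list. The 7 fast fibre genes, among them Myh2, Myl1 and Tpm1, had an SD of 0.07 to 0.18 with a median of 0.12 on the log2 scale. The 10 slow fibre genes, among them Mybpc1, Tpm3 and Myh7, had 0.12 to 0.47 with a median of 0.22. The highest of these was Myh7b, at a mean of 16.5 CPM. Its median in the retinas other than those of animals 2 and 8 was 25.1 CPM on library totals, and the part of retina in its spread was not tested. Myh7, the slow myosin, had a relative SD of 0.35 at a mean of 268.5 CPM. The 8 developmental and extraocular genes had 0.27 to 0.95 with a median of 0.44, and none of them lay under 0.2, where all 8 named skeletal muscle genes and all 7 fast fibre genes lay.

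Among those developmental and extraocular genes, Myh3, the embryonic myosin, averaged 498.4 CPM with a relative SD of 0.39 and Myh8, the perinatal myosin, 118.3 CPM with 0.48. Myh15, a myosin found in extraocular muscle, averaged 89.8 CPM with a relative SD of 0.37. Actc1, the actin of heart and developing muscle, averaged 565.1 CPM with a relative SD of 0.27. Myh14, which encodes a nonmuscle myosin, Myh6, at a mean of 7.67 CPM, and Myl4, at 3.32 CPM, had the highest values of the list, 0.70, 0.95 and 0.69. Myh6 had more RNA in retina, with a median of 34.8 CPM on library totals in the retinas other than those of animals 2 and 8. The part of retina in its spread was not tested. The relative SDs describe 24 libraries and were not tested between lists.

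**Figure D2:**
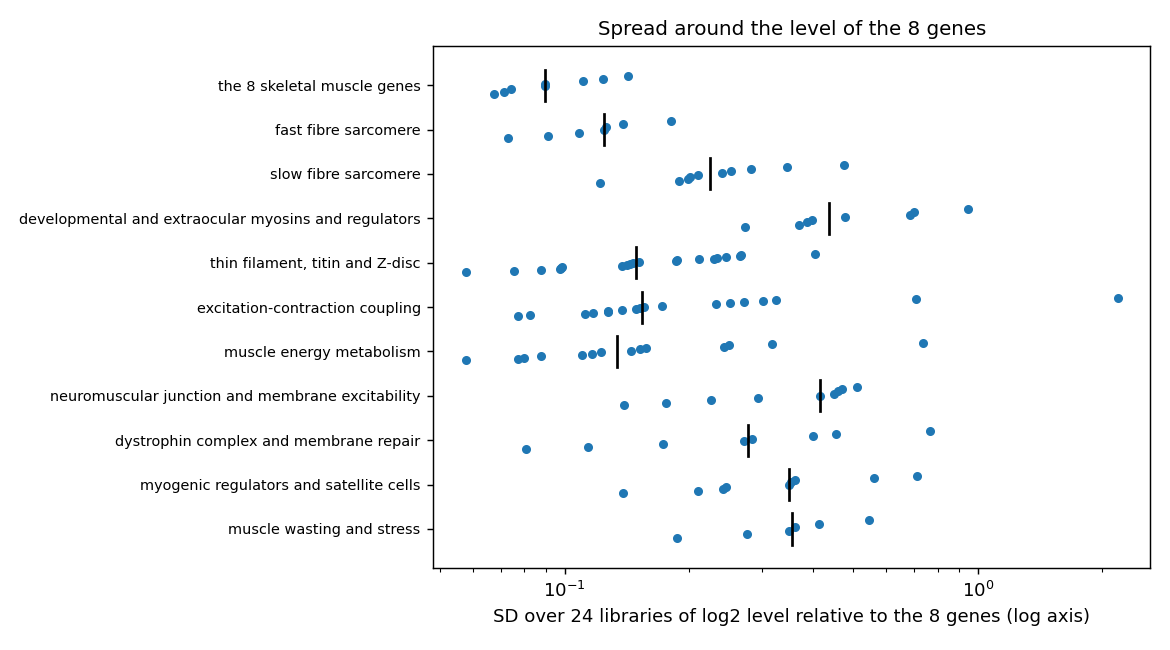
SD over 24 posterior eye libraries of each gene's log2 level after subtraction of the mean log2 level of the 8 skeletal muscle genes (log axis), 1 point per gene, with the median of each list as a bar. Each of the 8 was itself left out of the mean it was set against. The 8 genes and the fast fibre genes lie under 0.2, the developmental and extraocular genes at 0.27 or more.

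The remaining lists lay between these. The medians were 0.15 for 20 genes of the thin filament, titin and Z-disc, 0.15 for 18 genes of excitation-contraction coupling and 0.13 for 14 genes of muscle energy metabolism. They were 0.42 for 9 genes of the neuromuscular junction and membrane excitability, 0.28 for 8 genes of the dystrophin complex, 0.35 for 9 myogenic regulators and 0.36 for 6 genes of muscle wasting. Neb, the ruler of the thin filament, had a relative SD of 0.08 and Casq1, the calcium buffer of the reticulum, 0.13. Mb, which stores oxygen in slow and oxidative fibres, had 0.24, and Dmd, which is also made in retina, had 0.76.

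Ovariectomy gave no call for any of the 8 genes in the posterior eye of young animals. In the fit over all genes, 0.0061% of 16401 genes were called there at an adjusted p under 0.05. The log2 difference of OVX against sham ran from -0.03 for Acta1 to 0.08 for Mylpf, with a median of 0.03 beside -0.01 over all genes tested. Standard errors were 0.28 to 0.31, the 95% intervals ran from -0.69 to 0.69, and every adjusted p of edgeR's quasi-likelihood test was at least 0.999. The narrowest interval, that of Mylpf, ran from -0.50 to 0.65, and differences inside such intervals were not detectable with this spread. An unadjusted p under 0.05 was reached by 1023 of all genes and by none of the 8.

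In aged animals, 0 of the 8 genes were called for OVX, as were 0 of all 16401 genes (0%), while 423 of these had an unadjusted p under 0.05. The log2 difference ran from -0.06 for Tnni2 to 0.10 for Acta1, with 95% intervals from -0.65 to 0.75. Averaged over both ages, 0% of all genes were called and the 8 genes ran from -0.04 to 0.05 with intervals from -0.45 to 0.50. The interaction of OVX and age called 0% of all genes and ran from -0.07 for Des to 0.13 for Acta1 in the 8 genes, with intervals from -0.91 to 1.05.

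Age gave a similar picture. Aged against young sham animals called 0 of the 8 genes and 0% of all genes, with log2 differences from -0.04 for Acta1 to 0.11 for Tnni2 and intervals from -0.69 to 0.74. Aged against young OVX animals called 0 of the 8 and 0% of all genes, with differences from -0.04 to 0.10 and intervals from -0.63 to 0.74. Of all genes, 484 had an unadjusted p under 0.05 in the sham comparison and 1663 in the OVX comparison, and none of the 8 did in either, their lowest unadjusted p being 0.709 and 0.728. DESeq2 also called 0 of the 8 in each of these comparisons, and the share of all genes it called was not computed.

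**Figure D3:**
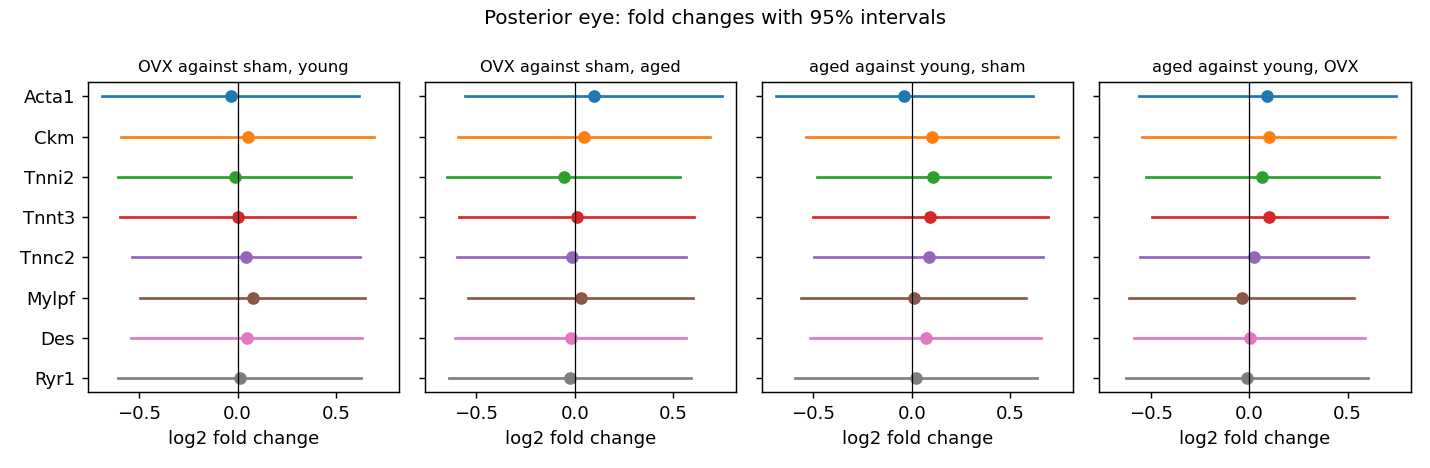
Log2 fold change of 8 skeletal muscle genes in the posterior eye for OVX against sham in young and aged animals and for aged against young in sham and OVX animals, with points for the estimate and lines for the 95% interval of edgeR's fit. Every interval includes 0, and the estimates lie between -0.06 and 0.11.

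The other muscle lists gave no call either. None of their 109 genes was called in any of the 6 comparisons in the posterior eye. For OVX in young animals the list medians ran from -0.05 for muscle wasting to 0.10 for the fast fibre genes. Myh2, the myosin of fast oxidative fibres, had a log2 difference of 0.14 ± 0.28 (SE) in young and 0.08 ± 0.28 in aged animals. Myh3 had 0.19 ± 0.36 in young and -0.47 ± 0.36 in aged animals, and Trim63, a ubiquitin ligase of muscle wasting, 0.04 ± 0.22 and -0.11 ± 0.22.

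Since the level of the 8 genes differed between libraries, the fit was repeated with their mean log2 level as a covariate, a choice made after seeing the data. The median standard error of the 109 other muscle genes for OVX in young animals was 0.29 without and 0.10 with the covariate. None of the 109 was called with it in any of the 6 comparisons, beside 0.0061% of all genes called for OVX in young animals, 0.0183% for OVX over both ages and 0% in the other 4. An unadjusted p under 0.05 was reached by 6 of the 109 (5.5%) for OVX in young animals, beside 7.46% of all genes, and by 8 (7.34%) in aged animals, beside 3.43% of all genes.

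The retina held far less muscle RNA, and all 8 genes were called higher in the posterior eye, as were 47.8% of 17153 genes. The log2 difference was 8.57 ± 0.27 (SE) for Acta1, 9.77 ± 0.38 for Ckm, 8.38 ± 0.25 for Des and 8.59 ± 0.28 for Mylpf. It was 13.25 ± 0.89 for Tnni2, 12.00 ± 0.68 for Tnnt3, 10.46 ± 0.51 for Tnnc2 and 4.58 ± 0.15 for Ryr1, with adjusted p of at most 7.6e-17 in edgeR's quasi-likelihood test. For each of them the lowest posterior eye library lay above the highest retina library. How many of all genes did so was not computed. Without both libraries of animals 2 and 8, all 8 genes were called as well. The difference was then 8.90 for Acta1, 10.41 for Ckm, 8.69 for Des, 8.98 for Mylpf, 16.92 for Tnni2, 14.15 for Tnnt3, 11.71 for Tnnc2 and 4.60 for Ryr1. Tnni2 had 0 counts in 14 of the 24 retinas, among them all 6 aged OVX retinas, and Tnnt3 had 0 counts in 4. The size of their differences, with and without animals 2 and 8, rests on counts near 0 and is uncertain. The mean level of Tnni2 was 2837 CPM in the posterior eye and 2.04 CPM in the retina.

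In the 22 retina libraries other than those of animals 2 and 8, the 8 genes did not keep the proportions of the posterior eye. Tnni2 had 0 to 5 counts, with 0 counts in 14 of the 22, and Tnnt3 had 0 to 6 counts, with 0 in 4. A count of 0 allows up to 3 counts, which is 0.0976 to 0.232 CPM in these libraries. Tnnc2 had 6 to 22 counts.

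Acta1 had 169 to 399 counts in the same 22 retinas, from 9.98 to 15.5 CPM, and Mylpf 48 to 157 counts. Ckm had 20 to 71 counts and Des 22 to 79. Ryr1, which is also made in neurons, had 105 to 352 counts, or 7.03 to 17.4 CPM. As a share of the same animal's posterior eye level, the median over the 22 animals was 0% for Tnni2, 0.00628% for Tnnt3, 0.0295% for Tnnc2 and 0.0808% for Ckm. It was 0.210% for Mylpf, 0.216% for Acta1, 0.277% for Des and 4.89% for Ryr1, on library totals.

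**Figure D4:**
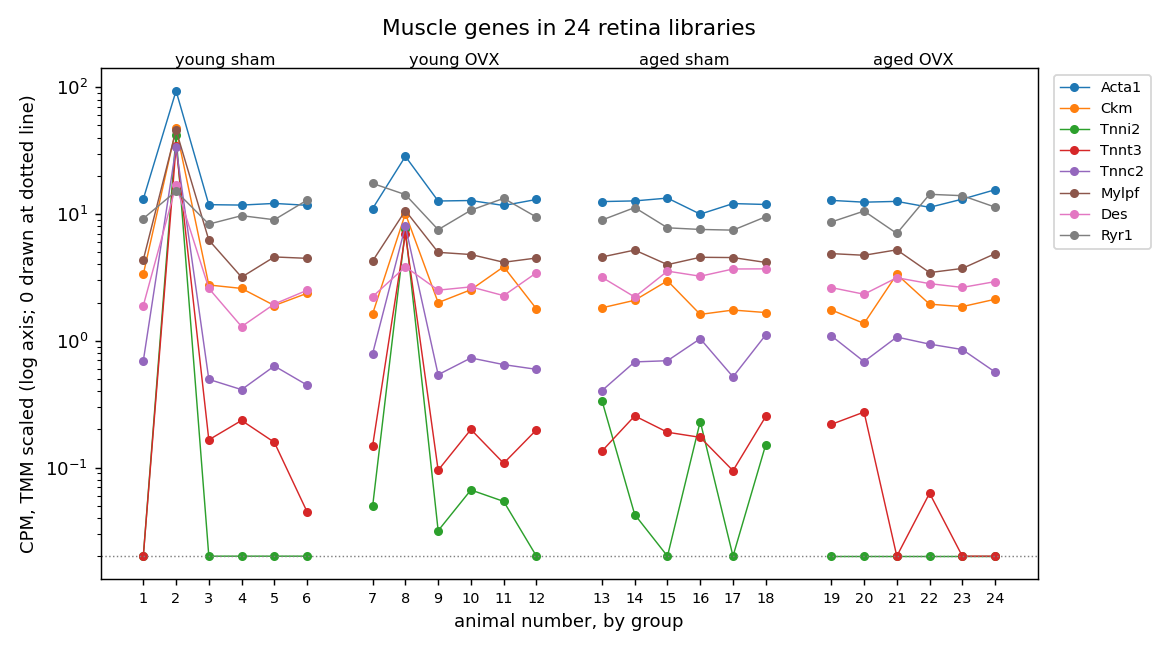
Level of 8 skeletal muscle genes in each retina library, as CPM on a log axis, by animal and group, with 1 point per library, lines joining the libraries of a group only to make each gene traceable, and 0 drawn at the dotted line. Animals 2 and 8 stand above the other 22 libraries in 7 of the 8 genes, and Ryr1 does not.

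Young sham animal 2 had the most muscle RNA of the 24 retinas. Its retina had 93.7 CPM of Acta1 (2144 counts), where the other young sham retinas had 11.7 to 13.1 CPM. Tnni2 was at 41.8 CPM there (956 counts) and at 0 counts in all 5 other young sham retinas. Ckm was at 47.3 CPM, Mylpf at 45.9, Tnnt3 at 34.1, Tnnc2 at 33.7 and Des at 16.9 CPM. Each of these 7 genes was above all 23 other retina libraries, and Ryr1, at 15.1 CPM, was within their range.

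Young OVX animal 8 was next, at a lower level. Its retina had 28.5 CPM of Acta1 (557 counts), 10.6 of Mylpf, 10.1 of Ckm, 8.03 of Tnnc2, 7.57 of Tnni2, 6.96 of Tnnt3 and 3.84 of Des. The highest value of the 22 remaining retinas was 15.5 CPM for Acta1, 0.337 for Tnni2, 0.274 for Tnnt3 and 3.70 for Des. Ryr1, at 14.2 CPM, was within their range of 7.03 to 17.4 CPM.

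After subtraction of the median of the other 22 retinas, the retina of animal 2 held 1.91% (Tnnt3) to 3.34% (Ryr1) of the level in its own posterior eye library, with a median of 2.08% over the 8 genes. The same share in animal 8 was 0.0813% (Des) to 1.43% (Ryr1), with a median of 0.204%. In animal 2 the 7 genes other than Ryr1 lay between 1.91% and 2.71%.

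Muscle genes of other kinds were compared in animal 2 with the posterior eye library of the same rat, using genes at 20 CPM or more in that posterior eye and a median of 1 CPM or less in the 22 other retinas. For these shares the level of the 22 other retinas was not subtracted. The 41 genes kept included Tnnt3, Tnni2 and Tnnc2, at 1.92%, 2.08% and 2.11%. The 5 slow fibre genes stood higher, with a median of 3.40% from Myoz2 at 2.66% (95% interval 1.51 to 4.35, 16 retina counts) to Tnni1, the slow troponin I, at 5.46% (4.63 to 6.40, 160 retina counts). The 3 developmental and extraocular myosins stood lower, with Myh3 at 0.579% (0.430 to 0.765, 50 retina counts), Myh8 at 0.754% (0.421 to 1.25, 15 retina counts) and Myh15 at 0.912% (0.530 to 1.46, 17 retina counts). The fast fibre genes Myl1 and Myh2 had 2.06% and 2.78%.

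The other lists in animal 2 had medians of 2.72% for 8 genes of the thin filament and Z-disc, 3.02% for 9 genes of excitation-contraction coupling and 2.24% for 6 genes of energy metabolism. In animal 8 the median was 0.223% for Tnnt3, Tnni2 and Tnnc2. As in animal 2, the thin filament and Z-disc genes (median 0.423%, 9 genes) and those of excitation-contraction coupling (0.441%, 10 genes) stood above these 3. Myh3 and Myh15, with 0 retina counts (exact upper limits 0.0270% and 0.119%), and Myh8, at 0.0807% with 2 counts, stood below them, again as in animal 2. Unlike in animal 2, the 5 slow fibre genes (0.0414%), the fast fibre genes Myl1 and Myh2 (0.106% and 0.193%) and the 6 energy metabolism genes (0.149%) were below the 3 troponin genes. Each is 1 pair of libraries with no replicate, so these shares have no test, and the intervals, which are exact and cover counting error only, take reads as independent molecules.

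**Figure D5:**
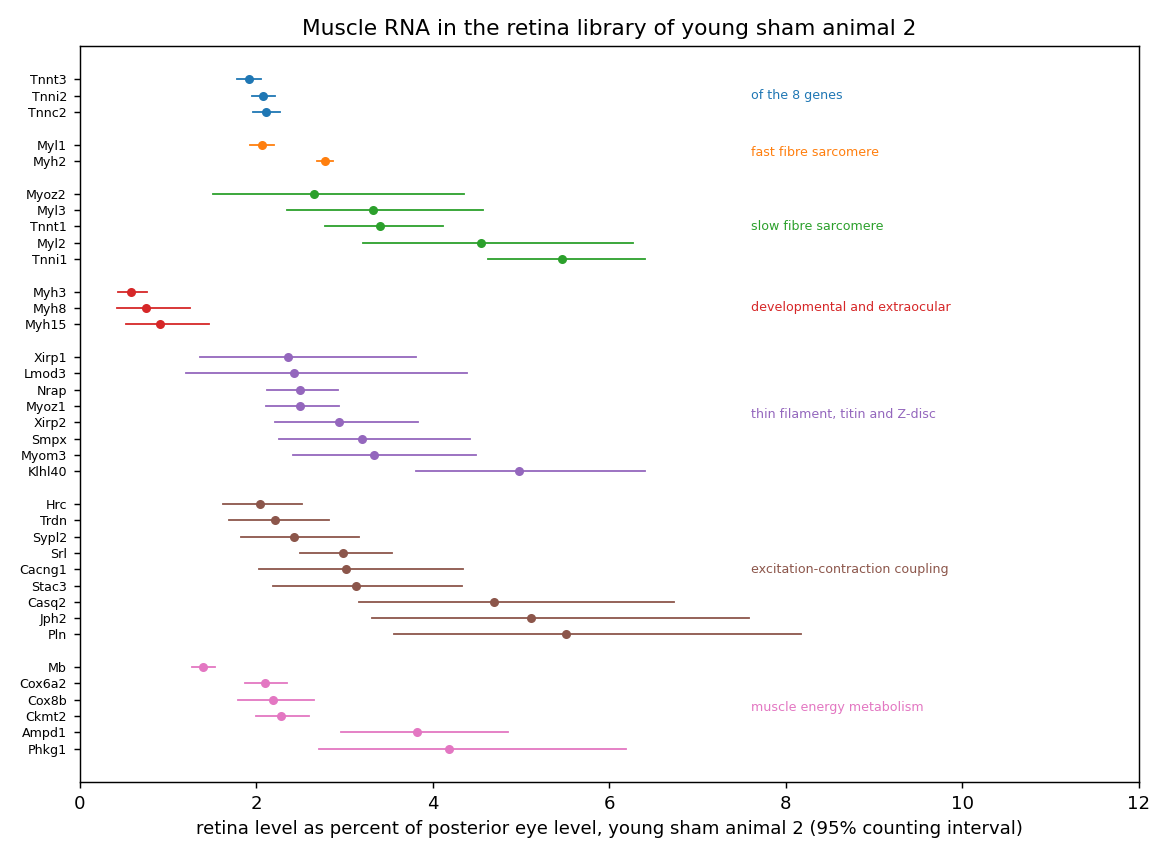
Level in the retina as a percent of the level in the posterior eye of young sham animal 2 for 36 muscle genes in 7 lists, on library totals, with points for the value and lines for the exact 95% counting interval. The 3 developmental and extraocular myosins lie at 0.58% to 0.91%, the 3 troponin genes of the 8 at 1.92% to 2.11% and slow fibre genes at 2.66% to 5.46%. The level of the other retinas was not subtracted.

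Markers of other tissues around the retina were summed in the same way. In animal 2 the summed levels of smooth muscle, cardiac, fat, meibomian gland, Schwann cell, tendon, rod, pigment epithelium and lens genes all lay within the range of the 22 other retinas, and for tendon and fibrous tissue the sum was 51.7 CPM in a range of 45.4 to 98.0. Of the single genes in these lists, the fat gene Plin1 and the tendon gene Mkx were above all 22 in animal 2. In animal 8 the summed tendon and fibrous tissue genes reached 119.4 CPM, above that range, with Fmod and Col1a1 above all 22, as were the fat gene Retn and the gland gene Elovl3. The 7 fat genes summed to 3.07 CPM in animal 8, in the other retinas to 0.945 to 3.01. The part of neighbouring tissue in these 2 libraries was not tested.

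The retina differences of the muscle genes changed with these 2 libraries. Tnnt3 and Tnni2 did not pass the filter on low counts in the retina, so 6 of the 8 genes were tested. None was called for OVX in young animals, beside 0.0194% of 15481 genes, with log2 differences from -1.71 ± 0.99 (SE) for Tnnc2 and -1.48 ± 0.71 for Ckm to 0.17 ± 0.19 for Ryr1. Ckm alone of the 6 had an unadjusted p under 0.05, at 0.0492, with an adjusted p of 0.438 in edgeR's quasi-likelihood test. Without the retina libraries of animals 2 and 8, Tnnc2 had 0.30 ± 0.29, Ckm -0.14 ± 0.24 and Acta1 0.01 ± 0.09, where it had -0.80 ± 0.45 with them.

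For aged against young sham retinas, 0 of the 6 genes were called, beside 0.0452% of all genes, and the differences ran from -3.05 ± 1.10 for Tnnc2 to -0.29 ± 0.20 for Ryr1, with a lowest adjusted p of 0.276 for Ckm. Without animals 2 and 8 they were 0.48 ± 0.28 for Tnnc2, -0.38 ± 0.23 for Ckm, 0.66 ± 0.17 for Des (adjusted p = 0.189) and -0.0024 ± 0.082 for Acta1. The aged groups hold neither library. For OVX in aged retinas, with 0% of all genes called, the 6 genes ran from -0.24 ± 0.47 for Des to 0.32 ± 0.20 for Ryr1. These differences were smaller in size than for OVX in young retinas and for age in sham retinas in all of the 6 but Ryr1. Ryr1 had 0.17 ± 0.19 for OVX in young retinas. For aged against young OVX retinas, OVX over both ages and the interaction, 0.0452%, 0.0517% and 0.0194% of all genes were called and none of the 6, and without animals 2 and 8 none of the 6 was called in these 3 comparisons either.

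No relation between the level of Acta1 in the retina and in the posterior eye of the same rat passed the test. Over the 24 animals Pearson's r was -0.03 and Spearman's rho -0.04 (adjusted permutation p = 0.867 and 0.929), and without animals 2 and 8 r was -0.16 (permutation p = 0.456). Within the groups of 6, r was -0.57 in young sham, 0.48 in young OVX, -0.30 in aged sham and -0.26 in aged OVX animals.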

How the data were processed

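The labels' protocols describe total RNA made into cDNA with the low-input SMART-Seq v4 kit and Nextera XT, read from both ends, with no step that marks strand. Raw counts of reads per gene, as whole numbers, were deposited by the authors in a table for each tissue. The submitters' processing notes name STAR 2.7.3a, HTSeq, DESeq2 and the build Rnor_6.0, and neither the annotation nor how reads were counted is given in the sources used here. Near-identical family members such as the myosins may share reads.

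From these counts, edgeR 4.0.16 in R 4.3.3 was run with TMM scaling, filterByExpr, 1 mean per group over the 24 libraries of a tissue and the robust quasi-likelihood test. P-values were two-sided and adjusted by Benjamini-Hochberg over all genes tested, and a gene was called under 0.05. The approximate standard error is the absolute log2 fold change over the square root of F. Log2 levels used a prior count of 2, and correlations with p used 100000 permutations. For the posterior eye, 25 gene names had become dates and were not used by name. The labels number separate animals. Both tissues of an animal are paired by its number; deviations from the group means correlated within an animal by -0.06 to 0.24 (median 0.06, 17153 genes).

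The genes and lists were chosen with earlier results of these data known. Named genes are the 10, the 3 of each list at the highest CPM, called list genes and the 10 most like the 8 by rho; others named were chosen after their values were seen. Alternatives were DESeq2 1.42.0, its size factors, no filter, fits of the 2 groups alone, leaving out each library and, across tissues, the animal as block. Omitting animals 2 and 8, the muscle covariate and the sums without Des or Cryab were added after seeing the data. The fits were tested on simulated data. Some results are not reported here.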

Additional observations from a re-analysis of the deposited data

Results flagged for a closer look

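In 63 groups of 6 libraries, formed by gene, tissue and group, the highest or lowest library was checked for a gap to the next by Dixon's criterion, which chance meets in about 1 in 20 groups. It was met in 16, of which 13 were in the retina. In the retina of young sham animal 2, the highest of its group, these were Acta1 at 93.7 CPM, Ckm at 47.3, Mylpf at 45.9, Tnni2 at 41.8, Tnnt3 at 34.1, Tnnc2 at 33.7 and Des at 16.9. In the retina of young OVX animal 8 they were Acta1 at 28.5 CPM, Mylpf at 10.6, Tnnc2 at 8.03, Tnni2 at 7.57 and Tnnt3 at 6.96. Des was lowest of the aged sham retinas in animal 14, at 2.22 CPM. In the posterior eye, young OVX animal 10 was lowest of its group in Tnnt3 at 1015 CPM, Tnnc2 at 989.0 and Tnni2 at 1239.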

How the results depend on the processing

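In every alternative run, 0 of the tested muscle genes were called in each comparison within a tissue and 8 of 8 between tissues. For most of these runs the share of all genes called was not computed. With the animal as replicate block, all 8 genes stayed called between tissues, from 4.53 (Ryr1) to 15.27 (Tnni2, at 0 counts in most retinas) on the log2 scale, and the pairing changed no call. Small uncalled differences changed sign, and the cause was not tested: Tnnt3 for OVX in the aged posterior eye was -0.012 with DESeq2 size factors, -0.0070 with no filter, -0.013 with DESeq2 and -0.016 with the 2 groups alone, and in young animals -0.0042 with the 2 groups alone. Without the retinas of animals 2 and 8, OVX in young retinas gave 0.014 for Acta1, 0.34 for Des and 0.30 for Tnnc2, and aged against young sham gave 0.48 for Tnnc2 and 0.66 for Des. Single libraries, left out in turn, gave these lowest and highest log2 differences. OVX in young posterior eyes: Acta1 -0.18 to 0.11, Ckm -0.081 to 0.19, Tnni2 -0.13 to 0.13, Tnnt3 -0.11 to 0.15, Tnnc2 -0.071 to 0.20, Mylpf -0.063 to 0.22, Des -0.074 to 0.19 and Ryr1 -0.12 to 0.15. OVX in aged posterior eyes: Acta1 -0.11 to 0.25, Ckm -0.16 to 0.18, Tnni2 -0.25 to 0.061, Tnnt3 -0.18 to 0.13, Tnnc2 -0.20 to 0.11, Mylpf -0.15 to 0.15, Des -0.21 to 0.11 and Ryr1 -0.22 to 0.092. Age in sham posterior eyes: Acta1 -0.19 to 0.17, Ckm -0.026 to 0.32, Tnni2 -0.0079 to 0.31, Tnnt3 -0.013 to 0.29, Tnnc2 -0.041 to 0.27, Mylpf -0.10 to 0.20, Des -0.066 to 0.27 and Ryr1 -0.10 to 0.22. OVX in young retinas: Acta1 -1.09 to 0.30, Ckm -2.12 to 0.50, Tnnc2 -3.23 to 1.82, Mylpf -1.35 to 0.28 and Des -0.90 to 0.45. Age in sham retinas: Tnnc2 -3.29 to 0.48 and Des -0.69 to 0.66. OVX in aged retinas: Ckm -0.12 to 0.20 and Mylpf -0.055 to 0.058. For young retinas and for age in sham retinas the highest values came without animal 2. Depth limited the retina values, where Tnni2 and Tnnt3 had 0 to 6 counts in 22 libraries, more than those of the posterior eye, where each of the 8 genes had at least 1304 counts.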

Other observations

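Jsrp1, a protein of the junction between reticulum and surface membrane in muscle, was singled out after its values were seen. In the posterior eye it had 292 to 1001 counts in 19 libraries and 2, 12, 10, 2 and 14 counts in animals 1, 10, 13, 19 and 24, which come from all 4 groups. Its relative SD of 2.18 on the log2 scale was the highest of the muscle genes listed. Animals 10, 13 and 19 were low in the 8 genes, while animal 1 had the highest summed level of the 8 in its group, 24524 CPM, and 0.176 CPM of Jsrp1. In the retina Jsrp1 ran from 0.331 to 1.38 CPM.

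Chrne, the adult subunit of the acetylcholine receptor at the neuromuscular junction, had the lowest unadjusted p of the 109 other muscle genes for OVX in aged posterior eyes with the level of the 8 genes as covariate, and it too was picked after its values were seen. Its log2 difference was -0.68 ± 0.18 (SE, unadjusted p = 0.000912, adjusted p = 0.998 in edgeR's quasi-likelihood test), and -0.69 ± 0.24 without the covariate. The aged OVX libraries ran from 2.41 to 4.25 CPM and the aged sham libraries from 2.41 to 8.46 CPM, so the groups overlapped. In young animals the difference without the covariate was -0.29 ± 0.23.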
